A study of Homo sapiens with 16 samples.

Results

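Most human genes are annotated with several transcripts, and the share that each transcript takes of its gene's RNA is its usage. Usage was compared here between 2 edited lines of JSL1, a Jurkat subclone (Jurkat is an established leukemic T cell line): 6 libraries of a line in which exon 9 of HDAC7 is included (iE9, labelled HDAC7 E9 knock-in) and 6 of a line in which it is deleted (dE9, labelled HDAC7 E9 knock-out). Each line had 3 unstimulated libraries kept in growth medium and 3 libraries given the phorbol ester PMA at 20 ng/mL, which activates protein kinase C, all labelled 48 h (the study's design text instead sets 48 h of PMA against 0 h, so the time of the unstimulated libraries is uncertain). The 4 unedited wild-type (WT) JSL1 libraries, 2 for each treatment, are given only for orientation, so that 12 of the 16 libraries of polyadenylated RNA entered the comparison. The lines were made with CRISPR-Cas9, and each genotype is 1 line, so an effect of exon 9 and any other difference between the 2 lines cannot be told apart. Nothing in the labels says that the libraries of a group came from separate cultures, and p-values then measure only the spread between these libraries.

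Usage is the percentage of a gene's TPM (a length- and depth-scaled abundance) that Salmon assigned to 1 transcript, and differences are in percentage points, iE9 minus dE9, averaged over both treatments. The members were the 8137 of 58295 genes that reached 5 TPM in all 12 libraries and have at least 2 annotated transcripts. Of their 86399 transcripts, the 29112 with a mean share of at least 5% were tested with limma on the log odds of the share, with treatment as a covariate. A transcript is said to have changed where the Benjamini-Hochberg adjusted p over all 29112 was under 0.05 and the difference was at least 10 points.

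HDAC7 is a class IIa histone deacetylase. It represses genes bound by MEF2 transcription factors, among them genes of thymocyte selection, and leaves the nucleus when it is phosphorylated and bound by 14-3-3 proteins. Alternative splicing can add or drop a cassette exon, and a transcript can also begin at another promoter, end at another polyadenylation site or keep an intron. The comparison asks whether the 2 lines also differed in how transcripts of other genes were chosen.

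HDAC7 exon 9 lies on the minus strand at chr12:47795906-47796016 (GRCh38, GENCODE release 29), where it is a coding exon, the 9th of transcript HDAC7-201. It holds 111 bases, or 37 codons, so the reading frame is kept without it. The 2 sequences below are shown because they are the difference that was engineered. Capitals mark exon 9 in the first, between 15 bases of exon 8 and 15 of exon 10, and in the second the last base of exon 8 and the first of exon 10 where they join.
HDAC7-201 with exon 9: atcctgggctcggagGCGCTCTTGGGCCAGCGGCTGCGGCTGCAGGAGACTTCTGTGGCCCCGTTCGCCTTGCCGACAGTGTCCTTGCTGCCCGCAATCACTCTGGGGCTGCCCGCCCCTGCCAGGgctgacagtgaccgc
HDAC7-202 without exon 9: atcctgggctcggaGGctgacagtgaccgc

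HDAC7 usage changed between the lines, and HDAC7-201 passed under each of the 29 other settings run. Inclusion of exon 9, taken as the TPM of the 5 transcripts that hold it over the TPM of these and of the 5 that skip it, was 58.3%, 51.8% and 74.9% in unstimulated iE9 cells, against 2.14%, 0.84% and 7.37% in unstimulated dE9 cells. Under PMA it was 42.3%, 63.0% and 44.3% in iE9 cells, against 0%, 0.68% and 0% in dE9 cells. Every iE9 library lay far above every dE9 library. The pooled difference was 53.9 points, with p = 0.005 in an exact two-sided permutation test of the line labels within treatments, the smallest p that this design allows. WT cells included the exon at 46.6% and 47.5% unstimulated and at 43.1% and 53.8% under PMA, which is below the 3 iE9 libraries in unstimulated cells and within their range under PMA.

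The change was seen in the 2 leading coding transcripts. HDAC7-201, which encodes 991 amino acids and holds exon 9, took 24.2%, 24.05% and 27.6% of HDAC7 TPM in unstimulated iE9 cells, against 0.76%, 0% and 3.55% in unstimulated dE9 cells. Under PMA it took 15.2%, 23.7% and 19.9% in iE9 cells, while all 3 dE9 libraries list it at 0. HDAC7-201 rose in iE9 cells by 21.7 points, with a log2 odds difference of 4.37 ± 0.40 (SE) and an adjusted p of 0.00492 (limma), and it also passed within unstimulated cells (adjusted p = 0.0436) and within PMA-treated cells (adjusted p = 0.00104).

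HDAC7-202, which encodes 954 amino acids and lacks exon 9, did the opposite. It averaged 10.1% ± 3.91 in unstimulated iE9 cells and 40.1% ± 6.74 in unstimulated dE9 cells, and 11.2% ± 3.97 and 34.5% ± 3.03 under PMA in iE9 and dE9 cells (SD, n = 3 each). The lines did not overlap in either treatment. HDAC7-202 fell in iE9 cells (pooled difference -26.65 points, log2 odds difference -2.34 ± 0.28, adjusted p = 0.0434, limma), but this call was lost on leaving out any 1 of 9 of the 12 libraries, with adjusted p of at most 0.144. The other 6 tested HDAC7 transcripts, of 30 annotated, differed by -4.23 to 7.32 points and none passed (lowest adjusted p 0.721, limma). The level of HDAC7 as a whole also differed: it was 61.0 to 103 TPM in iE9 against 21.2 to 26.8 TPM in dE9 cells without PMA, and 165 to 210 TPM in iE9 against 63.25 to 132 TPM in dE9 cells under PMA.

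**Figure D1:**
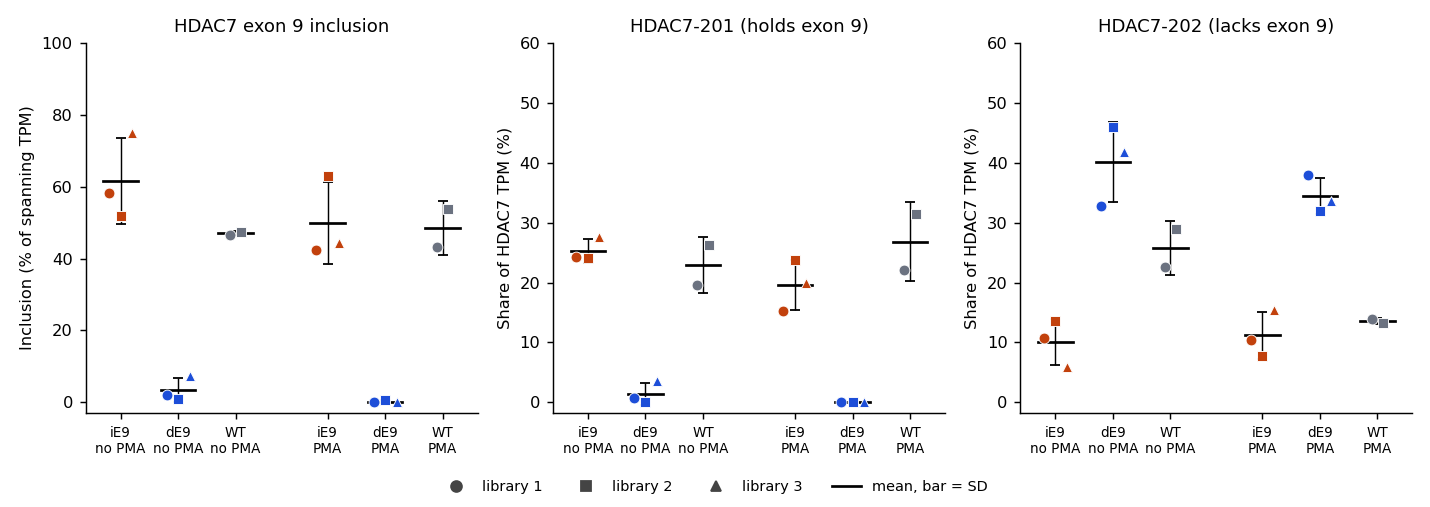
HDAC7 exon 9 inclusion (left, percent of the TPM of transcripts that span the exon) and the shares of HDAC7-201 (middle) and HDAC7-202 (right) in percent of HDAC7 TPM, one point per library, by line and treatment, with the mean and SD. Exon 9 inclusion is 42.3% to 74.9% in iE9 libraries and at most 7.37% in dE9 libraries, and the 2 transcripts lie in opposite order in the 2 lines.

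Across the other genes few changes in usage passed. Over both treatments 5 of 29112 transcripts changed (0.0172%), in 3 of 8137 genes (0.0369%): HDAC7, GLT8D1 and HMGB1P5. The PMA term of the same fit called 178 transcripts (0.611%). The median difference between the lines was 2.46 points and 99% of transcripts differed by less than 15.1 points, 1318 differed by at least 10 points (4.53%) and 88 by at least 20 points (0.302%), while the SD between replicates of a group had a median of 3.92 to 5.09 points. An unadjusted p under 0.05 was reached by 1825 transcripts (6.27%).

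When transcripts were pooled by the internal exon that they hold or skip, exon 9 of HDAC7 had the smallest p in the main fit. Of 10015 cassette exons in 4473 genes, 1 changed (0.00999%), and it was HDAC7 exon 9 (adjusted p = 0.00102, limma). The exon with the next smallest p had an adjusted p of 0.105. This grouping by exon was added after the transcript results were seen. It called HDAC7 exon 9 under each of the 18 other settings run, including the 12 that leave out a library each, with adjusted p of at most 0.0136. Exon 9 was not always first or alone. Another exon had a smaller p without both iE9 libraries numbered 1, without dE9 unstimulated library 1 and without iE9 unstimulated library 1. The number of called exons was 1 to 2 on leaving out 1 library and 3 with 0.1 TPM added.

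GLT8D1 encodes a glycosyltransferase family member. Its transcript GLT8D1-209 is a short form of 5 exons annotated as a target of nonsense-mediated decay (chr3:52694672-52696580, minus strand). It was listed at 4.1%, 0% and 0% of GLT8D1 TPM in unstimulated iE9 cells, against 8.3%, 8.8% and 15.2% in unstimulated dE9 cells. Under PMA it was at 0% in all 3 iE9 libraries, against 27.4%, 11.6% and 18.7% in dE9 cells. The transcript fell in iE9 cells (pooled difference -14.3 points, log2 odds difference -3.41 ± 0.44, adjusted p = 0.0494, limma). WT libraries ran from 0% to 19.8%, and leaving out any 1 of 11 of the 12 libraries ended the call, with adjusted p up to 0.144. The full-length coding transcript GLT8D1-201 was at 33.1% to 58.4% in the 6 iE9 libraries and at 17.5% to 31.1% in the 6 dE9 libraries, a difference of 20.0 points (adjusted p = 0.293, limma).

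HMGB1P5 is a processed pseudogene of HMGB1, which encodes a nuclear DNA-bending protein, and is outside the rule for named genes. Its 2 transcripts are the largest difference in the table. HMGB1P5-202 took 85.1% to 99.45% of the gene's TPM in the 6 iE9 libraries, against 17.7% to 54.9% in the 6 dE9 libraries, a difference of 57.3 points (adjusted p = 0.0494, limma), and HMGB1P5-201 took the remainder. WT libraries lay between the lines, at 57.6% to 82.9%. Reads of such a copy can be shared with HMGB1, so the assignment is uncertain, and leaving out any 1 of 10 of the 12 libraries ended the call (adjusted p up to 0.146). The level of the pseudogene differed too, at 47.9 to 178 TPM in iE9 cells and 13.8 to 48.8 TPM in dE9 cells over both treatments.

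**Figure D2:**
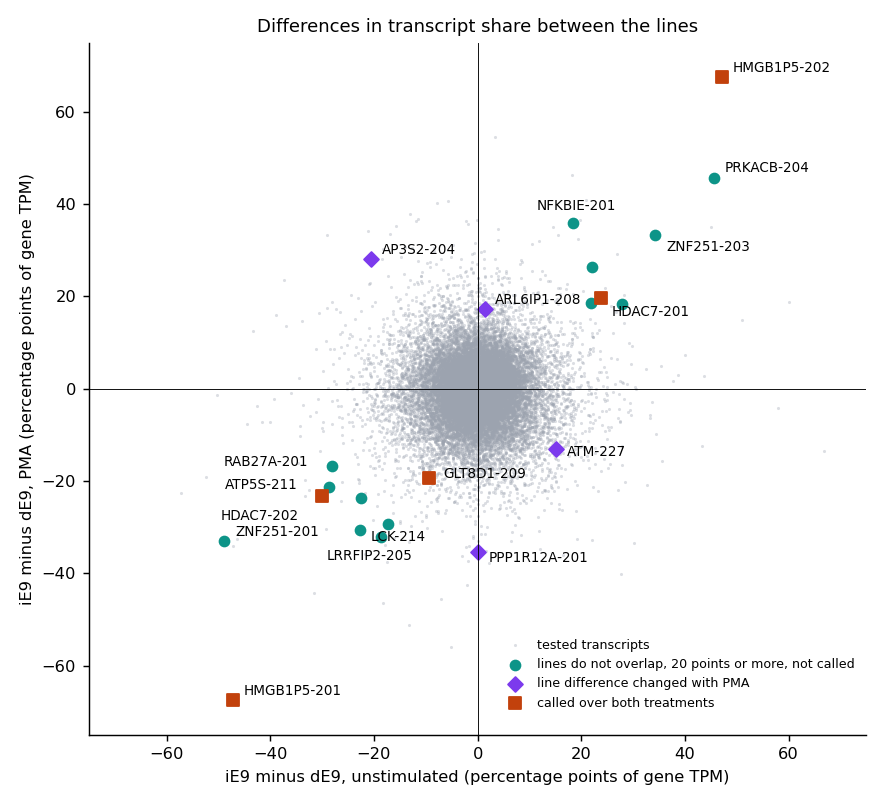
Difference in transcript share between the lines, iE9 minus dE9 in percentage points of gene TPM, in unstimulated cells (horizontal) and under PMA (vertical), one point per tested transcript. The 2 HMGB1P5 transcripts lie at 57.3 points on average in either direction, HDAC7-201 and HDAC7-202 lie on opposite sides of the origin, and the 4 transcripts whose line difference changed with PMA lie off the diagonal.

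Groups that do not overlap were more common than calls. In 251 transcripts (0.862%) the 3 iE9 libraries lay wholly above or wholly below the 3 dE9 libraries in both treatments and on the same side, whereas in 165 (0.567%) they lay on opposite sides in the 2 treatments. With a difference of at least 10 points as well, 85 transcripts in 75 genes remained (0.292%), 33 of them higher and 52 lower in iE9 cells. At 20 points there were 17 transcripts (0.0584%) in 14 genes (0.172%). The genes of these 17 outside HDAC7 and HMGB1P5 are named below after their values were seen, and none of their transcripts passed the test over both treatments.

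Several of these differences lay between transcripts with different start sites. PRKACB encodes the catalytic subunit beta of protein kinase A and is made with alternative first exons. PRKACB-204 (398 codons) and PRKACB-206 (351 codons) begin about 66 kb apart on chromosome 1, and their first coding stretches are shown because they are what separates the proteins. Capitals mark the start codon.
PRKACB-204, chr1:84144362-84144548, plus strand: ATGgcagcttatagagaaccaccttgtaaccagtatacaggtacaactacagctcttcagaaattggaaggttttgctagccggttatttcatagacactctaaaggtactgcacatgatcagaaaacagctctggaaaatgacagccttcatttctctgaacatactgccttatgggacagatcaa
PRKACB-206, chr1:84078326-84078371, plus strand: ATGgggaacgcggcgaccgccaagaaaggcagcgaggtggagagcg

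PRKACB-204 took 80.3%, 78.65% and 81.25% of PRKACB TPM in unstimulated iE9 cells, against 18.1%, 41.9% and 43.6% in unstimulated dE9 cells. Under PMA it took 71.1%, 83.7% and 83.7% in iE9 cells, against 15.6%, 44.9% and 40.9% in dE9 cells. All 6 iE9 libraries lay above all 6 dE9 libraries, by 45.6 points on average, but the adjusted p was 0.0532 (limma; log2 odds difference 2.87 ± 0.41). It ranged from 0.0128 to 1 over 28 other settings and was under 0.05 in 6 of them. WT cells varied widely, from 21.5% to 63.7%. PRKACB-206 took 10.97% to 16.1% in the iE9 libraries and 10.8% to 54.4% in the dE9 libraries, and overlapped under PMA.

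LCK, the Src family kinase that phosphorylates the T cell receptor complex, is transcribed from a distal and a proximal promoter, and both of its leading transcripts here encode the same 509 amino acids. Transcripts that begin at the upstream start sites (chr1:32251239-32251318, 7 transcripts led by LCK-202) took 26.9%, 27.97% and 25.85% of LCK TPM in unstimulated iE9 cells, against 3.51%, 15.9% and 3.46% in unstimulated dE9 cells. Under PMA they took 60.2%, 57.5% and 56.3% in iE9 cells, against 15.4%, 46.8% and 34.6% in dE9 cells. The iE9 libraries were above the dE9 libraries in each treatment. WT cells were at 5.55% and 5.81% without PMA and at 34.8% and 27.0% with it. The pooled difference of 22.5 points did not pass (adjusted p = 0.388, limma). The downstream start sites, led by LCK-214, took 67.4% ± 3.26 in iE9 and 88.75% ± 7.54 in dE9 cells without PMA, and 35.4% ± 4.09 in iE9 and 63.9% ± 15.2 in dE9 cells with it (SD, n = 3 each; adjusted p = 0.274, limma).

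Counted over start sites as a whole, 19053 groups of transcripts that begin within 100 bases of each other were tested in 7599 genes. None changed over both treatments (0%; lowest adjusted p 0.0576, limma), with 1185 groups at an unadjusted p under 0.05, and 13 groups (0.0682%) had no overlap and at least 20 points. Besides PRKACB and LCK these included start sites of RAB27A, a small GTPase of secretory granules, whose transcript RAB27A-201 took 36.25% to 47.1% in iE9 libraries and 56.9% to 80.1% in dE9 libraries. DUS2, a tRNA dihydrouridine synthase, had 2 transcripts of the same 493 codons, of which DUS2-201 took 26.2% to 59.4% in iE9 libraries and 3.6% to 24.3% in dE9 libraries. NFKBIE-201, the full-length form of a cytoplasmic inhibitor of NF-kB, took 67.3% to 100% in iE9 libraries and 43.9% to 66.0% in dE9 libraries (adjusted p = 0.539, limma). WT libraries had NFKBIE-201 at 100% and 100% without PMA, above the unstimulated iE9 libraries, and at 66.7% and 100% with it. The gene had 225 to 739 estimated counts per library. ZNF251, a zinc finger gene, had the largest difference of a single transcript among protein-coding genes after PRKACB, with ZNF251-201 at 16.1% to 36.02% in iE9 libraries and 44.2% to 77.2% in dE9 libraries (adjusted p = 0.115, limma). WT libraries had ZNF251-201 at 55.7% and 54.7% without PMA, between the lines, and at 54.1% and 62.15% with it, within the dE9 range. Start sites are not all that separates these transcripts. ZNF251-201, NFKBIE-201 and RAB27A-201 begin 164, 195 and 18906 bases from the transcript of their gene with the largest opposite difference. They end 32325, 2308 and 2384 bases from it. The noncoding form CRLS1-205 of cardiolipin synthase begins 23911 bases from CRLS1-202. It averaged 33.6% ± 13.9 in iE9 and 11.5% ± 10.6 in dE9 cells without PMA (SD, n = 3 each). Under PMA CRLS1-205 averaged 51.2% ± 2.64 in iE9 and 24.8% ± 21.07 in dE9 cells (SD, n = 3 each). The pooled difference of 24.2 points did not pass (adjusted p = 0.759, limma).

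A second set differed by an internal exon or by the 3′ end. TBC1D23, an adaptor of traffic from endosomes to the Golgi, has a coding cassette exon of 45 bases (15 codons) at chr3:100311833-100311877, the 15th exon of TBC1D23-202, which TBC1D23-201 lacks. The exon is shown in capitals between 15 bases of each neighbouring exon, followed by the junction without it, where capitals mark the 2 joined bases.
TBC1D23-202 with the exon: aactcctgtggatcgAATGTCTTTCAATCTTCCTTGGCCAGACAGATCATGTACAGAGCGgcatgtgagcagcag
TBC1D23-201 without the exon: aactcctgtggatcGGcatgtgagcagcag

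Inclusion of this exon averaged 70.3% in iE9 and 93.2% in dE9 cells without PMA, and 70.4% in iE9 and 91.9% in dE9 cells with it. It was 62.1% to 84.9% over the 6 iE9 libraries and 85.2% to 95.3% over the 6 dE9 libraries. The difference of -22.2 points did not pass (adjusted p = 0.53, limma). LRRFIP2, a protein linked to Toll-like receptor signalling, had its transcript LRRFIP2-205 at 21.7% to 41.4% in iE9 and 46.9% to 64.7% in dE9 libraries, and ATP5S, a mitochondrial ATP synthase-associated factor, had its noncoding transcript ATP5S-211 at 0% to 14.9% in iE9 and 16.5% to 35.8% in dE9 libraries (adjusted p = 0.0504, limma). ATP5S-211 was under an adjusted p of 0.05 in 8 of 26 other settings, among them 0.0024 without iE9 unstimulated library 1, and its adjusted p ran up to 0.215. For ATP5S the WT libraries, at 20.8% to 40.4%, were above all iE9 libraries. PPP2R3C-201, of a protein phosphatase 2A regulatory subunit, was at 17.0% to 50.9% in iE9 and 51.7% to 61.8% in dE9 libraries. Outside this set, the noncoding TRIM52-AS1-204 completed the 14 genes, with a difference of -23.15 points. It has 2 exons, and it begins 12 bases and ends 4 bases from TRIM52-AS1-203, the transcript with the largest opposite difference. Of 22643 groups of 3′ ends, also pooled within 100 bases, none changed (0%; lowest adjusted p 0.0534, limma), and 1488 had an unadjusted p under 0.05.

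**Figure D3:**
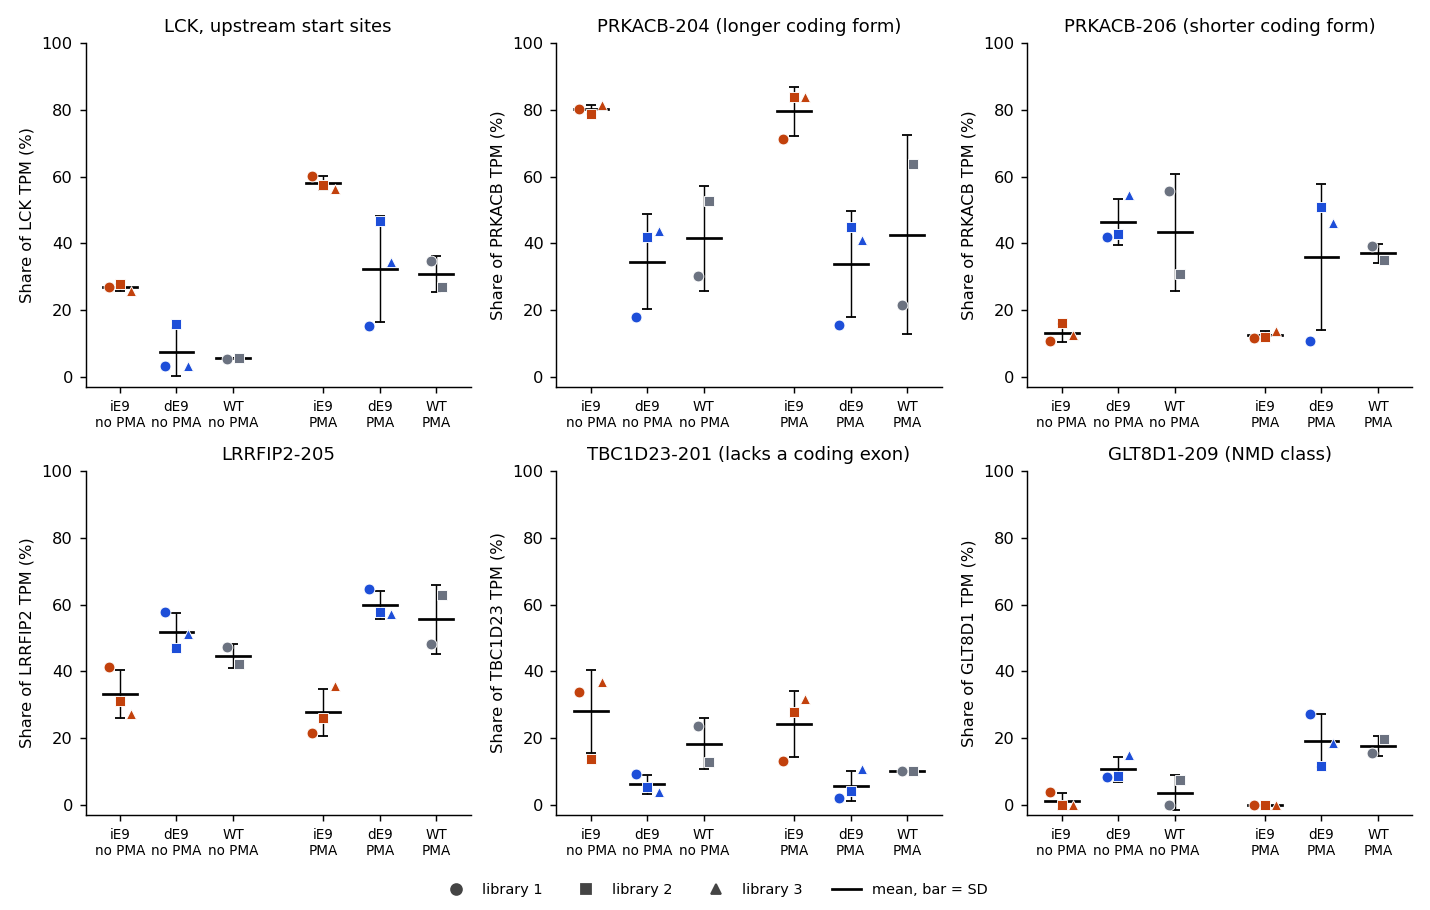
Shares in percent of gene TPM, one point per library with mean and SD, for the upstream LCK start sites, PRKACB-204, PRKACB-206, LRRFIP2-205, TBC1D23-201 and GLT8D1-209. PRKACB-204 is at 71.1% to 83.7% in iE9 libraries and 15.6% to 44.9% in dE9 libraries, and WT libraries are spread between 21.5% and 63.7%.

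Each list of related genes held 0 or 1 gene with a transcript of at least 10 points without overlap. Lists of 19 to 80 genes are too small for such counts to set a list apart from all member genes. Among 36 SR protein and hnRNP genes, which bind pre-mRNA and steer exon choice, none had a called transcript and none had a transcript of at least 10 points without overlap, against 0.922% of all member genes with such a transcript. The same was true of 48 core spliceosome genes, 29 genes of 3′ end processing and nonsense-mediated decay, 59 other chromatin regulators, 19 apoptosis genes, 44 kinase and small GTPase genes and 80 ribosomal protein genes. Each of 5 lists had 1 such gene. These were SRPK2 among 35 other splicing regulators and their kinases (2.86%) and LCK among 41 T cell signalling genes with known isoforms (2.44%). HDAC7 was the 1 among 30 histone deacetylases, co-repressors and 14-3-3 genes (3.33%). LRRFIP2 was the 1 among 39 cytoskeleton and trafficking genes (2.56%), and MALAT1 among 22 noncoding host genes (4.55%). HDAC7 was the only list member called by limma over both treatments. edgeR also called MALAT1-203 in the noncoding list (13.7 points, adjusted p = 0.0388, edgeR). Of an SR protein kinase gene, edgeR called SRPK1-213 (-13.3 points, adjusted p = 0.000562, edgeR). The median over genes of the largest transcript difference was 4.87 points for all member genes, 4.0 points for SR proteins and hnRNPs, 5.27 points for the deacetylase list and 1.46 points for ribosomal proteins. SRPK2, a kinase of SR proteins, had its transcript SRPK2-201 at 17.0% ± 4.66 in iE9 and 33.4% ± 2.67 in dE9 cells without PMA, and at 9.54% ± 1.29 in iE9 and 20.7% ± 7.46 in dE9 cells with it (SD, n = 3 each), which did not pass (adjusted p = 0.393, limma).

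Most transcripts that changed within a single treatment were listed at 0 throughout 1 line in that treatment. In unstimulated cells 4 transcripts changed (0.0137%) and under PMA 13 did (0.0447%). The number in unstimulated cells was 0 without dE9 unstimulated library 3, without iE9 unstimulated library 2, without iE9 unstimulated library 3 and with the replicate number as a block. Of these, 3 of the 4 and 9 of the 13 were listed at 0 in all 3 iE9 or all 3 dE9 libraries of that treatment. HDAC7-201 was called in both treatments. In unstimulated cells SRPK1-213, a retained-intron transcript of another SR protein kinase, was at 0% in all iE9 libraries, against 27.3%, 17.7% and 25.1% in dE9 cells (adjusted p = 0.0165, limma), and all 4 WT libraries list it at 0. Under PMA CNN3-201, of calponin 3, an actin-binding protein, was at 100% in all iE9 libraries, against 69.9%, 65.0% and 68.3% in dE9 cells (adjusted p = 0.0201, limma). FAM189B-201 was at 1.3%, 0% and 0% in iE9 cells, against 22.4%, 19.9% and 33.3% in dE9 cells (adjusted p = 0.0182, limma). Of the cassette exons, 16 changed under PMA (0.16%), and 10 of them belonged to 1 gene, SSBP3, a single-stranded DNA-binding protein gene. Its noncoding transcript SSBP3-215 averaged 22.5% ± 10.02 in iE9 cells under PMA (SD, n = 3) and was listed at 0 in every other library. The nonsense-mediated decay transcript RPF2-201 of a ribosome assembly factor was at 26.7%, 15.1% and 23.6% in iE9 and at 0% in dE9 cells under PMA (adjusted p = 0.00578, limma). Without PMA it was at 0% in both lines and at 10.3% in 1 WT library. SRPK1-213, SSBP3-215 and RPF2-201 reached the mean share of 5% only through the group where they were high. The SSBP3 exons likewise fell under the 95% limit on mean inclusion only through iE9 cells under PMA. These calls are therefore not independent of the filters.

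The difference between the lines itself changed with PMA for 4 transcripts (0.0137%). AP3S2 encodes a small subunit of the AP-3 adaptor, which sorts cargo to lysosomes. AP3S2-204 holds a coding exon of 36 bases that AP3S2-201 lacks (chr15:89878265-89878300, minus strand, 12 codons), shown in capitals between 15 bases of its neighbours.
AP3S2-204 with the exon: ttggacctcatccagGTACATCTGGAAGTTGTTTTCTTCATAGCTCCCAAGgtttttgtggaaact

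AP3S2-204 took 7.1%, 18.4% and 28.9% of AP3S2 TPM in unstimulated iE9 cells, against 35.5%, 41.0% and 39.7% in unstimulated dE9 cells. Under PMA it took 24.2%, 28.6% and 31.3% in iE9 cells and was listed at 0 in all 3 dE9 libraries, so the order of the lines was turned round. The interaction was 48.6 points (adjusted p = 0.0266, limma). PPP1R12A-201, of the myosin phosphatase targeting subunit, was at 0% in all unstimulated libraries and in iE9 cells under PMA, against 59.0%, 23.5% and 23.4% in dE9 cells under PMA (interaction -35.3 points, adjusted p = 0.0362, limma). It reached the mean share of 5% only through dE9 cells under PMA, so its call is not independent of that filter. In 1 of 2 WT libraries under PMA it was at 32.1%. The short noncoding ATM-227, from the gene of the DNA damage kinase ATM, was at 9.7%, 16.7% and 19.0% in iE9 cells and at 0% in dE9 cells without PMA, and at 9.6%, 9.7% and 8.9% in iE9 cells against 26.2%, 22.0% and 19.1% in dE9 cells with it (interaction -28.2 points, adjusted p = 0.017, limma). The retained-intron transcript ARL6IP1-208, of a protein that shapes the endoplasmic reticulum, was at 16.2% to 19.3% in iE9 cells against 0% to 0.4% in dE9 cells under PMA (interaction 15.96 points, adjusted p = 0.0235, limma). In leave-one-out fits the interaction stayed under an adjusted p of 0.05 in 9 of 12 for ATM-227, 5 of 12 for ARL6IP1-208, 4 of 12 for AP3S2-204 and 2 of 12 for PPP1R12A-201, and adjusted p over all alternatives ran up to 0.216.

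**Figure D4:**
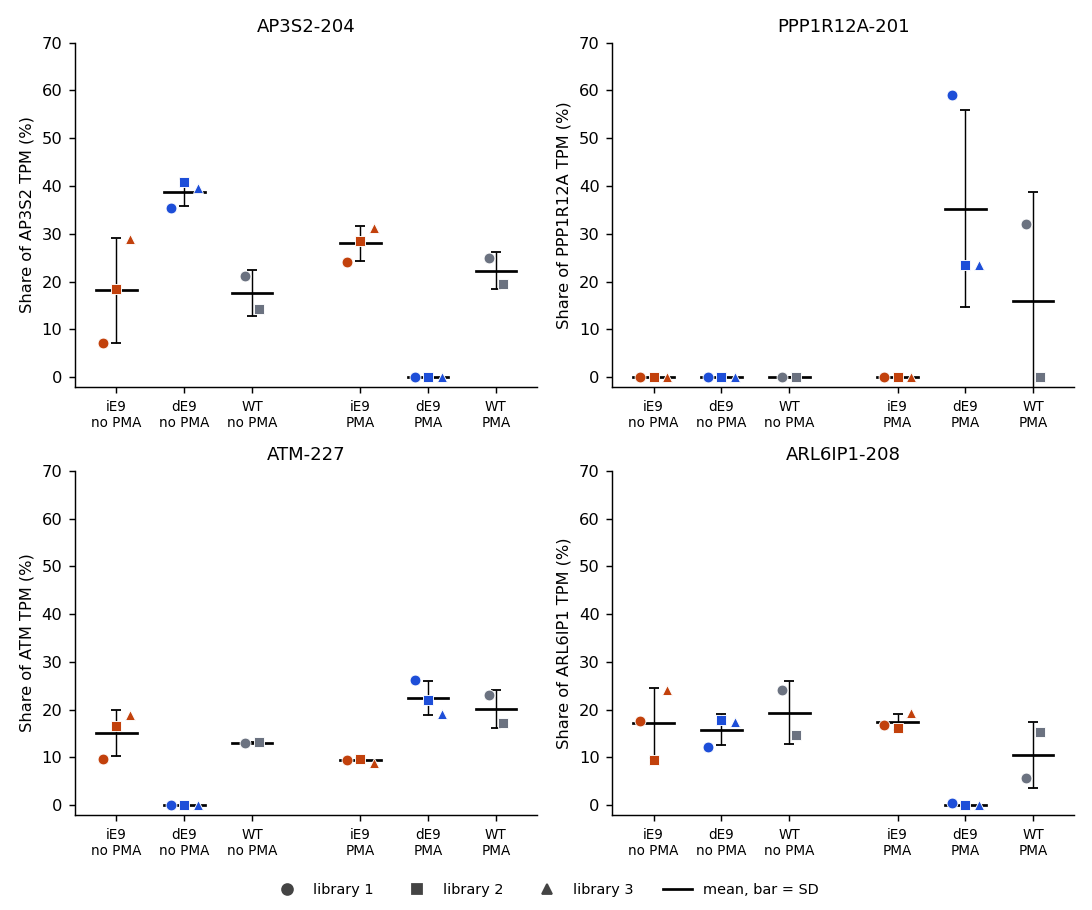
Share in percent of gene TPM of the 4 transcripts whose difference between the lines changed with PMA, one point per library with mean and SD. AP3S2-204 is lower in iE9 than in dE9 cells without PMA and is listed at 0 in the 3 dE9 libraries with PMA.

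Transcript classes were compared over all 8137 member genes. Of these, 5250 have a retained-intron transcript and 3933 a nonsense-mediated decay transcript, and genes without one counted as 0%. The median share of gene TPM in retained-intron transcripts was 3.41%, 1.23% and 1.28% in unstimulated iE9 cells, against 1.27%, 1.35% and 1.37% in unstimulated dE9 cells, and 4.02%, 1.80% and 1.95% in iE9 against 1.78%, 1.64% and 1.75% in dE9 cells under PMA. The iE9 libraries numbered 1 stood apart in both treatments, and in the same 2 libraries mitochondrially encoded genes took 9.17% and 12.8% of estimated counts, against 3.00% to 6.39% in all other libraries. Their part in the difference between the lines is measured by leaving them out: the pooled difference was 0.76 points (exact permutation p = 0.135, two-sided) with them and 0.0383 points (exact permutation p = 0.57) without them. Among tested retained-intron transcripts 3375 of 5198 (64.9%) were higher in iE9 cells on average, against 49.3% of all tested transcripts. Without the iE9 libraries numbered 1 the shares were 48.2% and 49.5%. The median share of nonsense-mediated decay transcripts was 0% in every library. This was fixed in advance, because most member genes have no such transcript, and so it says nothing. Weighted by TPM the share was 0.25 points higher in iE9 cells (exact permutation p = 0.035), and 0.14 points higher (p = 0.12, exact permutation) without the libraries numbered 1.

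**Figure D5:**
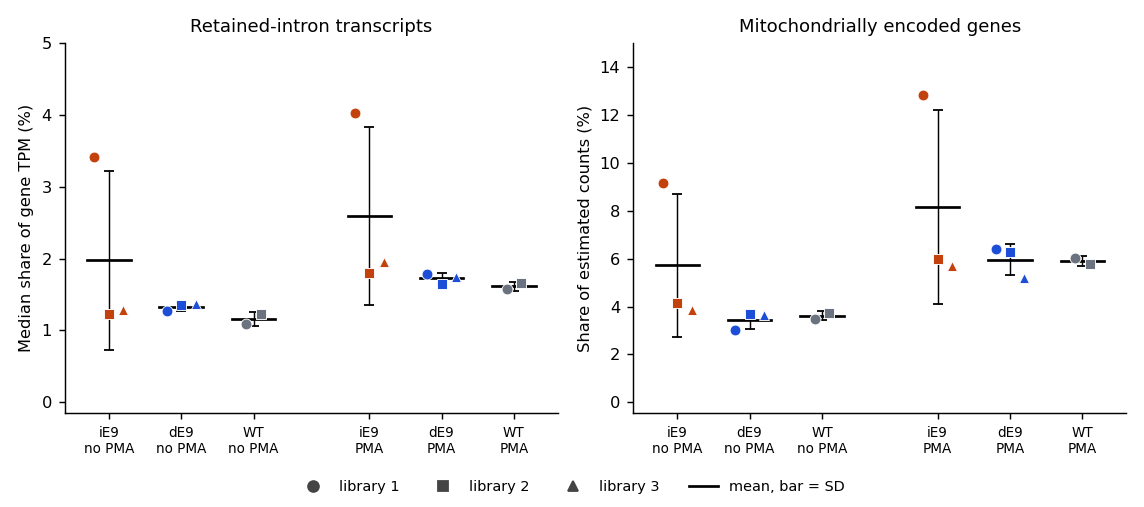
Median share of gene TPM in retained-intron transcripts (left, percent) and share of estimated counts from mitochondrially encoded genes (right, percent), one point per library with mean and SD. The iE9 libraries numbered 1, at 3.41% and 4.02% of retained-intron share, lie above all others in both panels.

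The distance in usage between libraries of different lines overlapped that between replicates. The mean absolute difference in share over all tested transcripts was 6.65 to 9.76 points (median 7.15) in the 18 pairs of an iE9 and a dE9 library with the same treatment, 7.26 to 9.44 points (median 7.78) in the 18 pairs of a PMA and an unstimulated library of 1 line, and 6.36 to 9.46 points (median 7.24) in the 12 pairs of replicates. Leaving out pairs with the iE9 libraries numbered 1, the medians were 7.0, 7.76 and 6.64 points. The dE9 PMA library 1 also stood apart, at 8.58 and 9.46 points from its replicates; without that library 3 transcripts changed over both treatments, HDAC7-201 among them (adjusted p = 0.0105, limma), and the interaction called 12. Without it and the iE9 libraries numbered 1, the ranges were 6.65 to 7.18 points between the lines (10 pairs), 7.26 to 8.19 points between treatments (10 pairs) and 6.36 to 6.82 points between replicates (6 pairs).

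Depth was 14536537 to 21888896 estimated counts per library. Of 11 T cell markers, 10 were at 1 TPM or more in all 12 libraries, the exception being CD2. None of 5 myeloid, 4 erythroid and 4 epithelial markers was, and of 5 B cell markers only CD79A was, with PAX5 at most 0.14 TPM. Some of these markers were higher in part of the libraries. The erythroid HBA1 ran up to 52.02 TPM in dE9 cells and HBA2 up to 49.73 TPM in iE9 cells, both under PMA. The B cell markers CD79B and MS4A1 ran up to 4.62 and 1.18 TPM in unstimulated iE9 cells. The summed B cell list, nearly all CD79A, was 52.5 to 188 TPM in iE9 against 8.94 to 33.2 TPM in dE9 cells without PMA and 304 to 539 TPM in iE9 against 14.8 to 203 TPM in dE9 cells with it. PECAM1 was the 1 of 5 fibroblast or endothelial markers at 1 TPM or more in all 12 libraries. Among T cell markers TRAC, the T cell receptor alpha constant gene, was at 131 to 258 TPM in iE9 against 4.61 to 25.5 TPM in dE9 cells without PMA and at 718 to 1149 TPM in iE9 against 50.02 to 192 TPM in dE9 cells with it. The part of these levels in the usage differences was not tested.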

How the data were processed

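The authors deposited TPM values and estimated counts of reads for every transcript and library, per the file headers, with a gene-level TPM table that equals the sums of the transcript values. Per the submitters' processing notes, Salmon, DESeq2 and hg38 were used; no source used here gives versions, options or strandedness. All 205870 transcripts matched GENCODE release 29 by identifier and length. Total estimated counts were 14536537 to 21888896 per library. The files hold no resampling of the quantification, so the error of assigning reads between transcripts is not in the tests beyond its part in the spread between libraries.

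Shares were computed from TPM as log2 odds with 0.5 TPM added to both parts, and tested with limma 3.58.1 (trend on gene level, robust) in R 4.3.3 over the 12 libraries, with line and treatment as terms, and with 4 groups for single treatments and the interaction. Benjamini-Hochberg adjustment was over all transcripts (29112), start-site groups, 3′ end groups or cassette exons; exons with a mean inclusion between 5% and 95% were tested. The fit was tested on simulated data. edgeR 4.0.16 (diffSpliceDGE on estimated counts) was an alternative. HDAC7 exon 9 and transcript classes were tested by exact permutation. Named were HDAC7, the called protein-coding genes, called list members and interaction calls; the genes without overlap at 20 points, SRPK2 and the transcripts named within 1 treatment were added after their values were seen. Sequences come from GENCODE release 29 transcripts. The members and lists were chosen with earlier results of these data known. Columns of values left unused numbered 0.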

Additional observations from a re-analysis of the deposited data

Results flagged for a closer look

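The line difference (iE9 minus dE9) of 4 transcripts was not the same with and without PMA, by the interaction term of the limma fit across all transcripts. It was 48.58 points larger under PMA for AP3S2-204, 15.96 points larger for ARL6IP1-208, -35.3 points for PPP1R12A-201 and -28.17 points for ATM-227. In each of the 4, at least 1 group of 3 libraries was listed at or near 0. With a replicate block, or with 2 TPM added in place of 0.5 TPM, the number of such transcripts was 0.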

How the results depend on the processing

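HDAC7-201 was called under all 29 alternatives (adjusted p at most 0.0372), and the exon 9 difference kept its direction and its call throughout, from 50.61 to 56.37 points on leaving out 1 library, at 57.05 from estimated counts, 61.81 over coding transcripts and 56.64 without both iE9 libraries numbered 1 (exact permutation p = 0.01, the smallest that comparison allows). The number of called transcripts, 5 as reported, was 8 with 2 TPM added, 8 for genes of at least 1 TPM and 8 without trend and robust fitting; it was 3 for genes of at least 20 TPM, 2 over coding transcripts, 1 with a mean share of at least 1%, 1 with no filter on share, and 13 with edgeR, of which 3 were shared with limma. The number of called genes, 3 as reported, was 6, 6 and 6 under the first of these settings, 1 with a share of at least 1%, 1 with no filter, 1 over coding transcripts, 13 with edgeR, and 5 with a share of at least 10%, on the arcsine scale, with all 16 libraries and without both iE9 libraries numbered 1, where 2 of the 5 called transcripts were shared. Leaving out 1 library gave 1 to 6 transcripts in 1 to 4 genes.

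In unstimulated cells the 4 calls became 13 with 0.1 TPM added, 1 with 2 TPM, 8 with no filter, 9 on the arcsine scale and 0 to 9 on leaving out a library. Under PMA the 13 became 20 with 0.1 TPM, 3 with 2 TPM, 5 with a share of at least 10%, 6 for genes of at least 20 TPM, 8 from estimated counts, 21 without both iE9 libraries numbered 1 and 12 to 19 on leaving out a library. The 4 interaction calls became 14, 0, 8, 2 and 2 with 0.1 TPM, 2 TPM, no filter, estimated counts and the arcsine scale, 7 without trend, and 0 to 12 on leaving out a library. For start sites the 0 calls became 1 and 6 with 0.1 and 2 TPM, 4 with a share of at least 10%, 3 for genes of at least 1 TPM, 3 from estimated counts, 4 on the arcsine scale, 4 without trend, 7 when pooled within 50 bases and 0 to 3 on leaving out a library. For 3′ ends the 0 calls became 3 with 2 TPM, 3 with a share of at least 10%, 2 from estimated counts, 2 on the arcsine scale, 4 without trend, 3 without both iE9 libraries numbered 1, 5 when pooled within 50 bases and 0 to 5 on leaving out a library. Cassette exons gave 3 with 0.1 TPM, 2 with 2 TPM, 2 on the arcsine scale, 2 without both iE9 libraries numbered 1 and 1 to 2 on leaving out a library. The causes were not tested.

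The retained-intron difference was 0.4 to 0.95 points on leaving out a library, and passed without iE9 unstimulated library 2 (0.94, exact permutation p = 0.035) and without iE9 PMA library 2 (0.95, exact permutation p = 0.045). Without both iE9 libraries numbered 1, a setting chosen after seeing the data for these forms, it was -0.0137 weighted by TPM and -0.0464 as a mean over genes. The nonsense-mediated decay difference passed at 0.25 weighted by TPM, at 0.12 as a mean over genes and at 0.15 as a mean without those libraries. As a median it was 0, and 0 to 0 on leaving out a library, which was fixed in advance because most member genes have no such transcript. Pairing of libraries by replicate number was weak over all groups. Same-numbered libraries of different groups had correlations of -0.02 to 0.197 in their deviations from the group means, and others -0.115 to 0.058. Of 12 libraries, 0 matched their own number best in every other group. Between the 2 treatments of a line, same-numbered pairs were at 0.057, 0.057 and 0.04 in dE9 and 0.197, 0.066 and 0.055 in iE9 cells. Differently numbered pairs were at -0.037 to -0.009 in dE9 and at -0.115 to 0.058 in iE9 cells. The main fit holds no term for such pairs, and the permutation tests permuted the lines in each treatment separately. The replicate block sets 1 term per replicate number for both lines together, so it does not model pairs within a line. With the replicate number as a block there were 4 called transcripts, 3 of them shared with the fit without it, among them PRKACB-204 (adjusted p = 0.0372); the counts were 0 in unstimulated cells, 8 under PMA, 0 for the interaction, 3 start-site groups and 1 cassette exon. Shares of genes with few reads are the least precise: HMGB1P5 had 118.5 to 2309.5 estimated counts per library, PRKACB 521 to 1707, and LCK 5671 to 12010.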
